A study of Mus musculus with 495 samples.

Results

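A set of 5 genes for small regulatory peptides was followed across single cells of the mouse embryonic pancreas: Ppy, Pyy and Npy of the pancreatic polypeptide family, and the gut peptide genes Cck (cholecystokinin) and Gast (gastrin). They were taken by name from a table of 23002 genes in 495 cells. For each gene the cells that held it, the islet hormone that these cells also held, and the presence of Neurog3 in them were recorded. The cells had been read with Smart-seq2, a plate method that covers whole transcripts and marks no strand and no molecule. The cells of E17.5 (57 on plate EA06 and 72 on EA07) were Neurog3-Cre, Rosa-mTmG, a reporter pair in which cells that have made Cre, and their descendants, change colour. All cells of E15.5 were Neurog3-eGFP, a strain with eGFP knocked into the Neurog3 locus, and came from plates coded endocrine (72 cells on EA02 and 85 on EA05), Neurog3 (73 on EA01 and 70 on EA03) and duct (66 on EA04). The labels named no animal, litter or sort gate, so each of the 4 groups was 1 sample. Cells are not replicates, so the comparisons carry no p-value. Intervals are exact at 95% (Poisson for levels, Clopper-Pearson for shares) and cover counting error only.

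The members of the pancreatic polypeptide family share a folded shape and act on the Y receptors. Ppy marks the PP (gamma) cell of the adult islet, Pyy is a hormone of the intestinal L cell that islets make as well, and Npy is best known as a neuropeptide. Cck and Gast encode peptides with a common amidated end that act on the receptors Cckar and Cckbr, and in adults they come mainly from endocrine cells of the small intestine and of the stomach. In the developing pancreas the basic helix-loop-helix factor Neurog3 starts the endocrine programme and is later switched off, and Fev is a factor of the precursors that follow in the mouse. Hormone genes, here Ins1 and Ins2 (insulin), Gcg (glucagon), Sst (somatostatin) and Ghrl (ghrelin), come up later.

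Ppy and Pyy are neighbours on mouse chromosome 11, both on the minus strand and 5356 bases apart, at chr11:102099930-102101319 and chr11:102106676-102107832 (GRCm38, GENCODE M21). Gast lies on the same chromosome at chr11:100334407-100336996, Npy at chr6:49822710-49829507 and Cck, on the minus strand, at chr9:121489824-121495694. All are protein-coding, none overlapped another annotated gene, and no stretch of 25 bases was shared between the transcripts of any pair of them. Of the 5 promoters, 3 are printed because the cells that follow separate them: most cells with Ppy also held Pyy, and most cells with Cck did not. Each is the 250 bases before the start that RefSeq gives (GRCm38.p6), 5′ to 3′ on the gene's strand, with the motifs CANNTG (the E-box, the kind of site that helix-loop-helix factors bind, read the same on both strands) and TATAA (searched on the gene's strand only) in capitals. For Pyy the more upstream of the 2 listed starts is shown.
Ppy, chr11:102101320-102101569: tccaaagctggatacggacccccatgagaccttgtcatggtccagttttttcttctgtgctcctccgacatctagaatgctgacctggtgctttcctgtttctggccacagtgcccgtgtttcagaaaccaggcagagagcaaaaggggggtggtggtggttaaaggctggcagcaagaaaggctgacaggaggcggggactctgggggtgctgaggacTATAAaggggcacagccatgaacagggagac
Pyy, chr11:102107833-102108082: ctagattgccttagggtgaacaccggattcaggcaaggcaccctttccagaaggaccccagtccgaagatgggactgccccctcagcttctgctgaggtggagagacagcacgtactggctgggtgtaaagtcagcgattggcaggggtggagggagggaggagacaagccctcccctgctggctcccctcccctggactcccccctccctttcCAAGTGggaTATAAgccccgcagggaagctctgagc
Cck, chr9:121495695-121495944: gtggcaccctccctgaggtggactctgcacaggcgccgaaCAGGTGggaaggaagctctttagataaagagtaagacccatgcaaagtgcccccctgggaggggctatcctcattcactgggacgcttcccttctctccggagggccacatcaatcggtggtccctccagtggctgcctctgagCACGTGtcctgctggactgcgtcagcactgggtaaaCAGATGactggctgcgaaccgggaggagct
Ppy held TATAA from 31 to 27 bases before the start and no CANNTG, and Pyy held TATAA from 27 to 23 bases before it with a CAAGTG from 36 to 31. Cck held 3 CANNTG motifs, of which CAGATG, from 30 to 25 bases before the start, was the nearest to it, and no TATAA. Over 32841 RefSeq promoter windows of the same length, 66.2% held a CANNTG, 31.8% held 2 or more, 14.4% held CAGATG or its reverse complement CATCTG, and 16% held TATAA. In the windows not printed, Gast held CACCTG and TATAA and Npy held neither motif.

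Counts per cell ranged from 200152 to 1182889, and levels are counts per 1000000 (CPM) of the cell or of the summed group. A gene was called read in a cell at 20 CPM or more and high at 1000 CPM or more. Plates EA01 to EA04 gave 20.6% to 23.04% of their counts to the ribosomal RNA gene Rn45s and plates EA05 to EA07 8.83% to 10.3%, a split that follows their titles and is treated as 2 library batches. The plate coded duct held acinar genes: the 7 acinar markers summed to 32148 CPM there, against 23.2 to 299 CPM in the other groups, while the 6 duct markers summed to 2396 CPM, against 893 to 2358 CPM, with Cftr at 0 throughout. Mesenchyme genes were in this plate as well: the 5 mesenchyme markers summed to 2075 CPM, against 6.19 to 76.1 CPM in the other groups. The 4 endothelial markers summed to 97.8 CPM, against 0 to 0.832 CPM. The 5 peptide genes were absent from the plate apart from 4 Ppy counts in 1 cell at 10.2 CPM. None of its 66 cells had any member read, which allows a share of up to 4.55% by the floor of 3 cells and 5.44% by the exact interval, at a median depth of 438470 counts per cell against 545800 in the other 429 cells. The results below are therefore about those 429 cells.

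Of the 429 cells, 308 had at least 1 of the genes read, and 45 had 3 or more. Pyy was the most widespread, read in 201 cells (46.9%) and high in 36.4%. Cck was read in 30.8% of cells and high in 47 cells, Ppy in 84 and 26, Gast in 59 and 9, and Npy in 16 and 10. Per kilobase of exon, the summed level was 6187 CPM for Pyy, 660 for Ppy, 322 for Gast, 213 for Cck and 141.4 for Npy. These totals were spread very unevenly over cells. The 5 leading cells held 10.4% of all Pyy counts, 15.7% of those of Cck, 45.2% of those of Ppy, 61.2% of those of Npy and 76.6% of those of Gast, and a single cell held 34.4% of all Gast counts. Shares of cells are therefore given before summed levels.

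**Figure D1:**
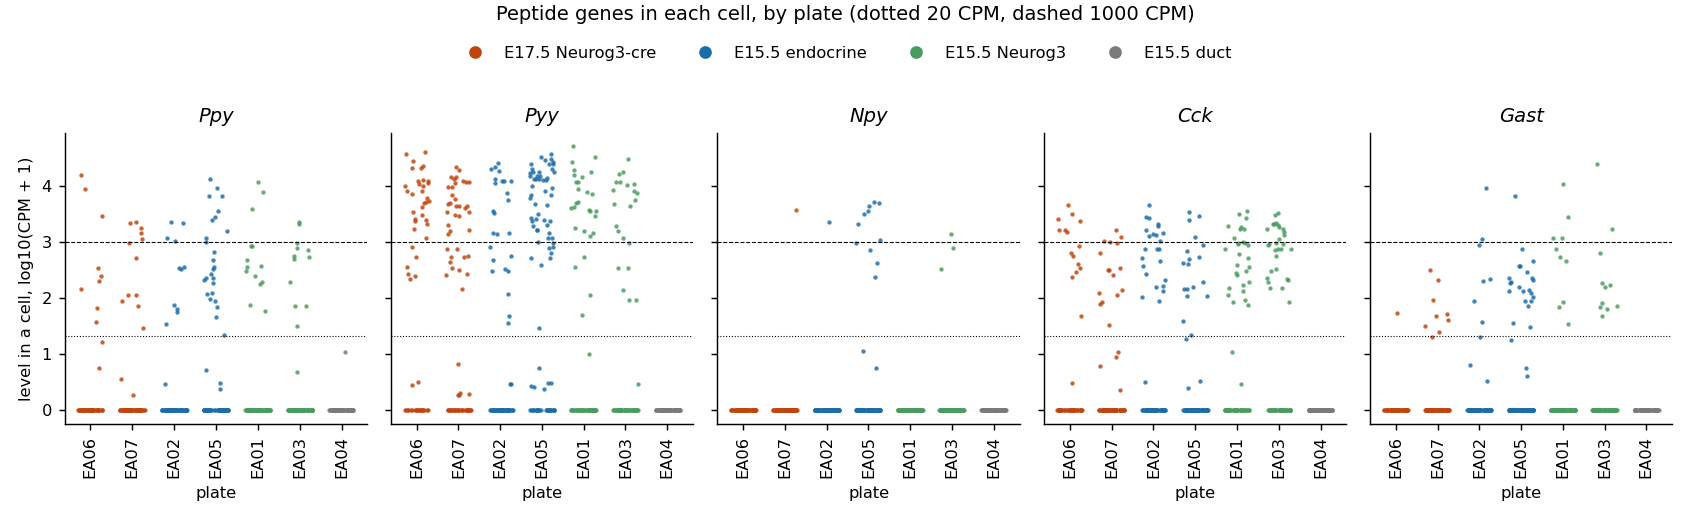
Level of each peptide gene in every cell as log10(CPM + 1), by plate, with 1 point per cell spread sideways at random, the dotted line at 20 CPM and the dashed line at 1000 CPM. Cells with Pyy stand on all 6 plates outside the duct code, 11 of the 16 cells with Npy read are on EA05, and Gast is nowhere over 319 CPM on the E17.5 plates.

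Each cell was assigned to the hormone it held most of, if that reached 1000 CPM, which gave 69 Ins cells (Ins1 and Ins2 summed), 21 Gcg, 29 Sst, 28 Ghrl and 282 cells with no such hormone. The median depth of these sets lay between 529610 and 598190 counts. Few cells were near the limit: 6 had their largest hormone between 500 and 1000 CPM and 7 between 1000 and 2000 CPM. Pyy accompanied every hormone. It was read in 28 of 29 Sst cells (96.6%, 82.2 to 99.9), 20 of 21 Gcg cells (95.2%, 76.2 to 99.9), 23 of 28 Ghrl cells (82.1%, 63.1 to 93.9) and 52 of 69 Ins cells (75.4%, 63.5 to 84.9), against 78 of the 282 cells with no hormone (27.7%, 22.5 to 33.3). It was high in all 28 of the Sst cells that held it and in 19 Gcg, 20 Ghrl and 36 Ins cells. The median Pyy level of a cell was 12302 CPM in Sst cells and 10703 CPM in Gcg cells, 3918 CPM in Ghrl cells and 1181 CPM in Ins cells. The Sst and Gcg cells therefore stood close together, with interquartile ranges of 6862 to 18122 and 1625 to 15310 CPM, and the Ins cells lay lowest (47.9 to 4910 CPM).

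Ppy had a narrower company. It was read in 16 of 21 Gcg cells (76.2%, 52.8 to 91.8), 14 of 29 Sst cells (48.3%, 29.4 to 67.5), 23 of 69 Ins cells (33.3%, 22.4 to 45.7), 5 of 28 Ghrl cells (17.9%, 6.06 to 36.9) and 26 of 282 cells with no hormone (9.22%, 6.11 to 13.2). The intervals of Gcg and Ghrl cells do not overlap, while those of neighbours in this order do. Ppy was not among the hormones that set the classes. Of the 26 Ppy-high cells, 8 had none of those hormones at 1000 CPM, and 7 were classed as Sst, 6 as Gcg, 4 as Ins and 1 as Ghrl. The cell with the most Ppy (EA06) held 15434 CPM of it beside 21370 CPM of Pyy and 2774 CPM of Gcg. The next (EA05) held 13233 CPM beside 28538 CPM of Pyy and 46783 CPM of Sst, and the one after it (EA01) 11723 CPM beside 111880 CPM of insulin and 45097 CPM of Sst.

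Npy, by contrast, was found with insulin. It was read in 15 of 69 Ins cells (21.7%, 12.7 to 33.3) and had no count in the 21 Gcg, 29 Sst or 28 Ghrl cells, where 3 cells would be 14.3%, 10.3% and 10.7%. The only other cell that read it held no hormone (710 CPM of Npy, with Fev at 20 CPM or more). The classes go by the largest hormone, and 2 of the Ins cells with Npy held a further hormone at 1000 CPM or more. In 1 of them it was Gcg (2096 CPM of Npy) and in 1 Sst (960 CPM of Npy). All 10 Npy-high cells were Ins cells, with 1086 to 5176 CPM of Npy (median 3384) and 27835 to 219390 CPM of insulin. Insulin itself was 16939 to 219390 CPM (median 53909) in the 15 Ins cells with Npy. In the 54 without Npy it was 1053 to 207200 CPM (median 24701). The ranges overlap, and the median was higher in the cells with Npy. The lowest values come from 15 and 54 cells and so cannot be set against each other. Insulin was not compared within a plate. The neural crest marker Sox10 was at 0 in the Npy-high cells. Of the 15, 10 came from 1 plate: Npy was read in 0 of 6 and 1 of 8 Ins cells on the E17.5 plates EA06 and EA07, in 1 of 8 and 10 of 27 on the endocrine plates EA02 and EA05, and in 0 of 10 and 3 of 10 on the Neurog3 plates EA01 and EA03. Without EA05 the share was 11.9% of 42 Ins cells.

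Cck was mostly in cells with no hormone. It was read in 37.9% of these 282 cells (32.3 to 43.9), 10 of 28 Ghrl cells (35.7%, 18.6 to 55.9), 6 of 21 Gcg cells (28.6%, 11.3 to 52.2), 7 of 69 Ins cells (10.1%, 4.18 to 19.8) and 2 of 29 Sst cells (6.90%, 0.846 to 22.8). At 1000 CPM or more it was found in 43 cells with no hormone and 4 Ghrl cells, and in none of the Ins, Gcg or Sst cells. The Ghrl cells were the hormone cells that most often still held Neurog3 (14 of 28 at 20 CPM or more). Cck was read in 7 of those 14 and in 3 of the 14 Ghrl cells without Neurog3, and the intervals, 23.04% to 76.96% and 4.66% to 50.8%, overlap. Gast was read in 11 of 21 Gcg cells (52.4%, 29.8 to 74.3), 9 of 28 Ghrl cells (32.1%, 15.9 to 52.4), 12 of 69 Ins cells (17.4%, 9.32 to 28.4), 3 of 29 Sst cells (10.3%, 2.19 to 27.4) and 24 of 282 cells with no hormone (8.51%, 5.53 to 12.4). In contrast to Cck, 8 of the 9 Ghrl cells with Gast lacked Neurog3.

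**Figure D2:**
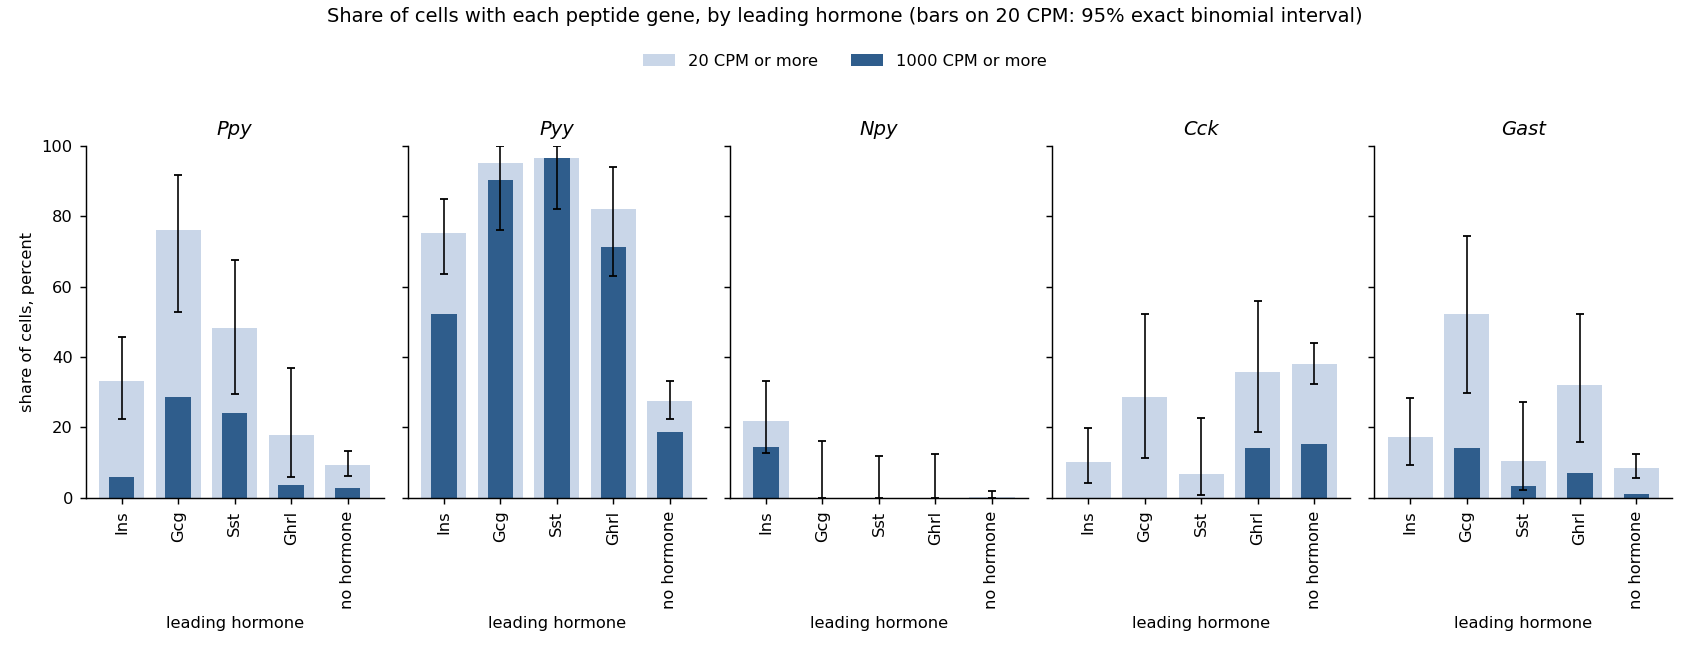
Share of cells (percent) with each gene at 20 CPM or more (light bars, with exact 95% binomial intervals) and at 1000 CPM or more (dark bars), by leading hormone. Pyy is over 70% in every hormone class, Npy is at 0 outside the Ins class among hormone cells, and Cck has dark bars only in the Ghrl class and in cells with no hormone.

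On summed counts, each hormone class was set against the other 3 together, with 5 CPM added to both sides of the ratio and genes compared where 1 side reached 20 CPM. Among all genes so compared, 22.9% differed over 2-fold for the Ins class, 33.3% for Gcg, 27.4% for Sst and 29.4% for Ghrl, so a difference of that size is common and the counts of members say little by themselves. Of the Ins calls 37.2% were upward, and 48.3% with TMM factors. In the Ins class Npy stood at 503 CPM, against 0 CPM in the other classes (at least 8153-fold higher, with 3 counts over the other classes as the floor), and the other 4 members were lower, from -1.51 (Pyy) to -3.03 (Gast) on the log2 scale. In the Gcg class Ppy stood at 2261 CPM, against 485 CPM in the others (log2 ratio 2.21), and Gast at 324 CPM, against 141.95 CPM (1.16). Npy and Cck were lower there, and Pyy was not over 2-fold apart (0.93). These Gcg values rest on single plates: the Ppy ratio was 0.80 without EA06, and the Gast ratio was -0.15 without EA01, whose 3 Gcg cells were all Gast-high, and 0.82 without EA07. The Cck ratio was -0.13 without EA06 and -2.55 without EA05. The Pyy ratio was 0.47 without EA06, 1.07 without EA01 and 1.09 without EA02. In the Sst class Ppy (1355 CPM against 581 CPM, log2 ratio 1.21) and Pyy (12565 CPM against 5670 CPM, 1.15) were higher and the other 3 members lower, with a Ppy ratio of 0.20 without EA05. In the Ghrl class Cck stood at 435 CPM, against 31.4 CPM in the others (3.60), and Gast at 490 CPM, against 82.5 CPM (2.50), while Ppy (-2.85) and Npy were lower and Pyy was not over 2-fold apart (-0.27). In the Ghrl class, 2 cells held most of the Gast counts, with 9062 CPM (EA02) and 6549 CPM (EA05).

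To see how early each gene is read, cells were ordered by Neurog3 (20 CPM), Fev (20 CPM) and the presence of a hormone (1000 CPM): 188 cells had Neurog3 and no hormone, 24 Neurog3 and a hormone, 68 Fev without either, 26 none of these, and the rest (28.7%) a hormone without Neurog3. Of the 24 cells with Neurog3 and a hormone, 13 were on EA06, 8 on EA07, 2 on EA01 and 1 on EA02. This set is thus mostly of E17.5, and 14 of its cells were Ghrl cells. Cck was the early gene. It was read in 84 of the 188 early cells with Neurog3 and no hormone (44.7%, 37.4 to 52.1) and in 17 hormone cells without Neurog3 (13.8%, 8.26 to 21.2). It was also read in 33.3% of cells with both, 20.6% of the Fev cells and 34.6% of the cells with none. The place of the cells with none in this order is not settled. Their 6 duct markers summed to 3844 CPM, against 2390 CPM in the early, 753 CPM in the Fev and 612 CPM in the hormone cells without Neurog3. It was high in 37 early cells (19.7%) and in 1 hormone cell without Neurog3 (0.813%). By plate, Cck was read in 8 of 20 and 11 of 36 early cells on the E17.5 plates EA06 and EA07, in 20 of 42 and 2 of 7 on the endocrine plates EA02 and EA05, and in 21 of 39 and 22 of 44 on the Neurog3 plates EA01 and EA03.

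Pyy was read in early cells as well, but in fewer of them. It was read in 30 of 188 early cells (15.96%, 11.03 to 21.99), in 18 of the 24 cells with Neurog3 and a hormone, in 54.4% of the Fev cells, in 42.3% of the cells with none, and in 85.4% of hormone cells without Neurog3 (77.9 to 91.1). The early cells with Pyy differed by plate: 7 of 20 and 10 of 36 on EA06 and EA07, and 2 of 7 on EA05. In the other library batch they were fewer, with 3 of 42 on EA02, 5 of 39 on EA01 and 3 of 44 on EA03. The part of age, strain and library batch in the values of these cells was not tested. Of the 188 early cells, 75 read Cck without Pyy, 21 Pyy without Cck, 9 both and 83 neither. Those with Pyy held less Neurog3, 23.9 to 6559 CPM with a median of 501 CPM, against 49.5 to 14550 CPM with a median of 3808 CPM in those without Pyy. For Cck the medians were 3817 CPM in the early cells with it and 3345 CPM in those without. Where the early cells also had Fev (48 cells), Pyy was read in 33.3% (20.4 to 48.4), against 14 cells (5.58% to 16.2%) of those without Fev, and Cck in 33.3% (20.4 to 48.4) against 48.6% (40.05 to 57.2).

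The other members were rare in early cells. Ppy was read in 6 of 188 (3.19%, 1.18 to 6.82), Gast in 4 (2.13%, 0.583 to 5.36) and Npy in none, which allows up to 1.94% by the exact interval. In the Fev cells without Neurog3 or hormone, Ppy was read in 17 of 68 (15.3% to 36.98%), Gast in 15 (22.1%, 12.9 to 33.8) and Npy in 1. In hormone cells without Neurog3, Ppy was read in 51 (41.5%, 32.7 to 50.7), Gast in 32 (26.02%, 18.5 to 34.7) and Npy in 15 (12.2%, 6.99 to 19.3). The intervals of Gast in the Fev cells and in the hormone cells overlap. The cell with the most Gast (EA03) was a Fev cell and held 25102 CPM of it, 11887 CPM of Pyy, no Neurog3 count and 163 CPM of Fev, with insulin at 5.88 CPM.

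**Figure D3:**
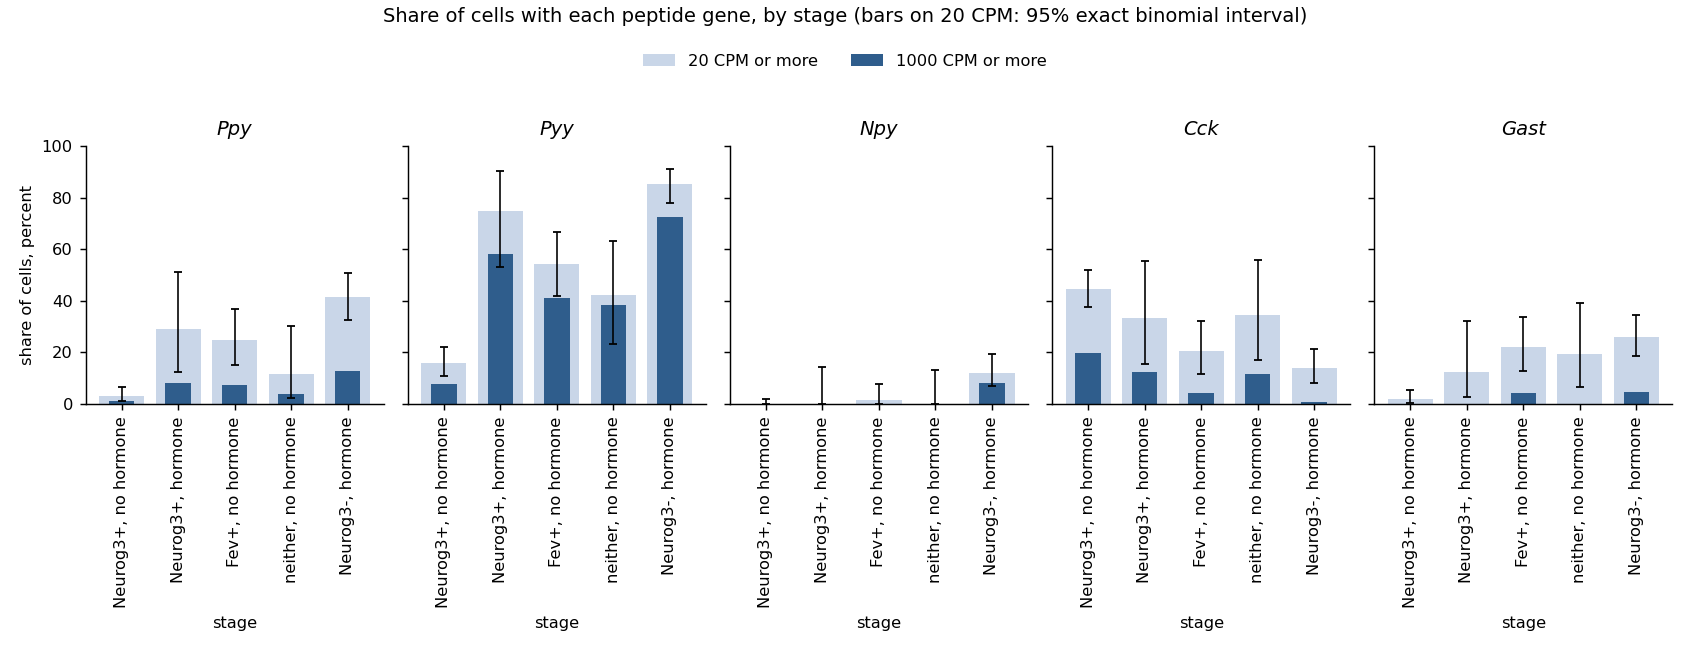
Share of cells (percent) with each gene at 20 CPM or more (light bars, with exact 95% binomial intervals) and at 1000 CPM or more (dark bars), by presence of Neurog3, Fev and a hormone. Cck is the only one of the 5 that is more frequent in cells with Neurog3 and no hormone (44.7%) than in hormone cells without Neurog3 (13.8%).

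The same 429 cells were also grouped by the level of Neurog3 itself. The lowest range holds all cells counted above as without Neurog3, so this is not a separate check of the order. In cells with Neurog3 under 20 CPM, from 20 to under 200, from 200 to under 2000 and at 2000 CPM or more, Cck was read in 18.4%, 24.1%, 39.7% and 49.6%. Over the same 4 ranges Pyy was read in 70.5%, 68.97%, 36.2% and 5.60%, and Ppy in 32.7%, 13.8%, 10.3% and 2.40%. Gast was read in 23.96%, 13.8%, 3.45% and 0.800% of them. All 16 cells with Npy had no Neurog3 count. Among the cells with the most Neurog3, Cck (62 cells) thus outnumbered Pyy (7 cells), the reverse of the 217 cells under 20 CPM (40 cells with Cck).

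**Figure D4:**
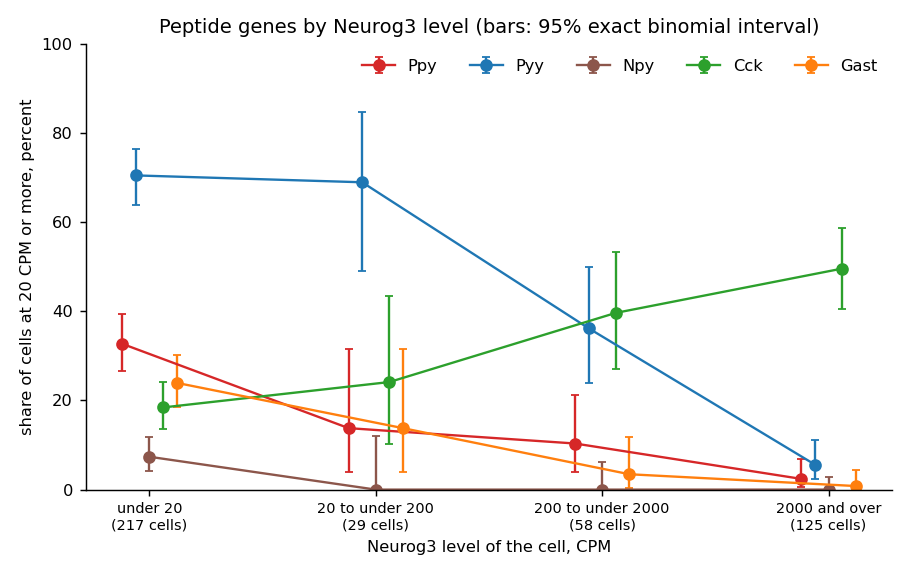
Share of cells (percent, with exact 95% binomial intervals) with each gene at 20 CPM or more, by the Neurog3 level of the cell in CPM, in 4 ranges (the number of cells is given under each). The share with Cck goes up with Neurog3 to 49.6%, while the share with Pyy goes down to 5.60%.

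On summed counts the early cells held 458 CPM of Cck, against 50.6 CPM in hormone cells without Neurog3 (log2 ratio 3.06). They held 580 CPM of Pyy, against 7468 CPM (-3.67), 25.6 CPM of Ppy, against 808 CPM (-4.73), and 3.79 CPM of Gast, against 201 CPM (-4.55). Npy had 0 counts, against 280 CPM (at least 9971-fold lower, with 3 counts over the early cells as the floor). All 5 were thus over 2-fold apart, 1 higher and 4 lower, where 21.5% of 7872 genes were over 2-fold apart, 879 higher and 816 lower.

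Ppy was almost never without Pyy. Of the 84 cells with Ppy, 80 also read Pyy (95.2%, 88.3 to 98.7), against 35.1% of the 345 cells without Ppy (30.04 to 40.4). The reverse did not hold: 80 of the 201 Pyy cells read Ppy (39.8%, 32.98 to 46.9), and 50.6% of the Pyy-high cells (79 cells) had no Ppy count at all. In 73 of the 80 cells with both, Pyy was the higher per kilobase of exon, with a median ratio of 10.99 and a range of 0.155 to 333. Gast kept similar company. Pyy was read in 48 of 59 Gast cells (81.4%, 69.1 to 90.3), against 41.4% of the 370 others (36.3 to 46.6), and it was high in all 9 Gast-high cells. Ppy was read in 28 of the 59 (47.5%, 34.3 to 60.9), against 15.1% (11.6 to 19.2) of the others. These contrasts do not hold stage constant. Hormone cells without Neurog3 made up 60.7% of the Ppy cells and 54.2% of the Gast cells, against 28.7% of all 429 cells. Early cells made up 7.14% and 6.78% of them, against 43.8%. Pyy was read in 85.4% of all hormone cells without Neurog3, and pairing of these genes within a stage was not tested.

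Over all 429 cells, the relation of Cck to Pyy ran the other way. Pyy was read in 42 Cck cells (31.8%, 23.99 to 40.5), against 159 of 297 others (53.5%, 47.7 to 59.3). Stage was not held constant here either. Early cells made up 63.6% of the Cck cells, against 43.8% of all cells, and Pyy was read in 15.96% of early cells. Within the early cells, 9 of the 84 with Cck read Pyy. Of the early cells without Cck, 21 read Pyy and 83 did not. This difference within the stage was not tested. Of the 47 Cck-high cells, 5 were Pyy-high and none was Ppy-high, Npy-high or Gast-high. Cck and Gast, whose peptides share the amidated end, were read together in 15 cells. Cck was read in 25.4% of the Gast cells (14.98 to 38.4), against 31.6% of the others, and Gast in 11.4% of the Cck cells (6.50 to 18.05), against 14.8% of the others, so both intervals include the share in the other cells. Npy met Pyy in 10 of its 16 cells (62.5%, 35.4 to 84.8), an interval that includes the 46.2% of the other cells.

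**Figure D5:**
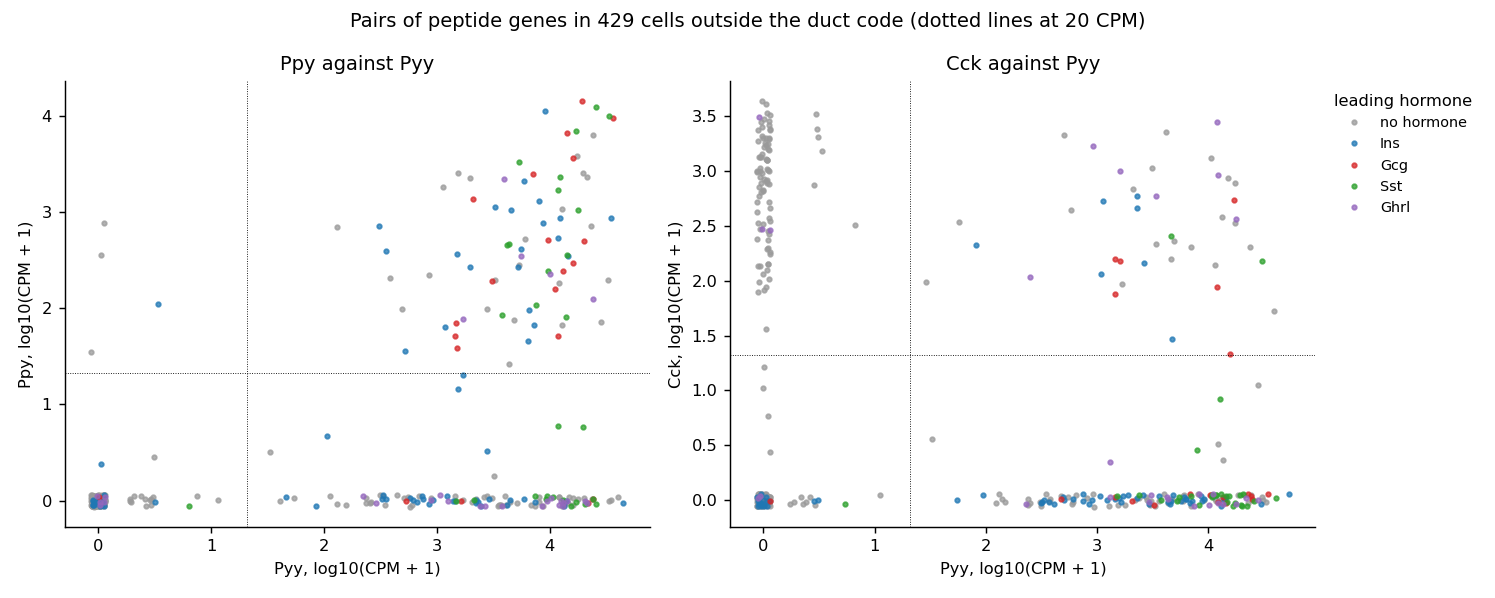
Ppy (left) and Cck (right) against Pyy in 429 cells as log10(CPM + 1), coloured by leading hormone, with a random shift of at most 0.06 on both axes and dotted lines at 20 CPM. Of the 84 cells above the line for Ppy, 80 lie right of the line for Pyy, while most Cck cells lie at the left edge, where Pyy has no count.

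Across the 429 cells, the correlation of log2(CPM + 1) was taken between each member and 8492 genes, as a description, since cells share plates and depth. For Ppy the closest gene was Pyy (r = 0.52, from 0.39 to 0.60 over the 6 plates), and no other reached 0.5. For Pyy the closest were Rbp4, the plasma retinol carrier (0.67), Isl1, a LIM homeodomain factor of islet cells (0.65), Tmem27, a membrane protein of islet and kidney cells (0.57), Scgn, a calcium-binding protein of endocrine cells (0.55), and Dbpht2 (0.55). Over the 6 plates the lowest r was 0.44 for Rbp4, 0.35 for Isl1, 0.48 for Tmem27, 0.18 for Scgn and 0.24 for Dbpht2. Rbp4 was read in 92.5% of Pyy cells and 34.6% of the others, and Isl1 in 90.05% and 29.4%. No gene reached 0.5 for Cck, whose highest was 0.43 (Mdk, the growth factor midkine), or for Gast, whose highest was 0.45 (Peg10, an imprinted gene). Npy, read in fewer than 20 cells, was left out.

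Between groups the picture depended on the plate. In E17.5, endocrine-code and Neurog3-code cells, Pyy was read in 56.6%, 49.7% and 34.97% of cells, Ppy in 16.3%, 23.6% and 18.2%, Cck in 24.03%, 26.8% and 41.3%, Gast in 6.98%, 18.5% and 14.7%, and Npy in 0.775%, 7.64% and 2.10%. Set against both E15.5 codes together, E17.5 cells held 26.05 CPM of Npy, against 113.1 CPM (log2 ratio -1.93), and 7.76 CPM of Gast, against 234 CPM (-4.23). Pyy (3721 CPM against 4016 CPM, -0.11), Ppy (309 CPM against 343 CPM, -0.15) and Cck (217 CPM against 314 CPM, -0.53) were within 2-fold. The median of all genes compared was 0.20, and -0.0107 with TMM factors, and 15.6% of them were over 2-fold apart, 85.8% of these upward (68.6% with TMM factors).

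By plate, Gast stood at 0.846 and 11.4 CPM on the E17.5 plates EA06 and EA07, against 182 and 125.7 CPM on the endocrine plates EA02 and EA05 and 254 and 439 CPM on the Neurog3 plates EA01 and EA03. On summed counts every E17.5 plate lay below every E15.5 plate for this gene, but a few cells carry those sums, and by cells with Gast read the plates overlap, with 1 of 57 and 8 of 72 cells on EA06 and EA07, against 7 of 72 and 22 of 85 on EA02 and EA05 and 10 of 73 and 11 of 70 on EA01 and EA03. Gast was high in no E17.5 cell (3 cells would be 2.33%), against 9 of 300 at E15.5 (1.38% to 5.62%). Age and strain change together between these groups and cannot be told apart. Npy showed no such order: it was at 0 and 39.9 CPM on EA06 and EA07, against 36.3 and 292 CPM on EA02 and EA05 and 0 and 27.4 CPM on EA01 and EA03, and its ratio was 0.29 without EA05. Within the library batch that E17.5 shares with EA05, the log2 ratios were -3.36 for Gast, -3.26 for Npy, -0.96 for Ppy, -0.83 for Pyy and 0.52 for Cck.

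Endocrine-code cells held 194 CPM of Npy, against 12.99 CPM in Neurog3-code cells (log2 ratio 3.47), and 147.1 CPM of Gast, against 342 CPM (-1.19). Ppy (412 CPM against 258 CPM, 0.66), Pyy (5033 CPM against 2765 CPM, 0.86) and Cck (226 CPM against 423 CPM, -0.89) were within 2-fold, and 11.7% of all genes compared were beyond it, 61.8% of these upward (50.2% with TMM factors). The 2 endocrine plates were unlike each other: EA02 and EA05 held 2472 and 6616 CPM of Pyy, 101.01 and 604 CPM of Ppy and 351 and 149.3 CPM of Cck, against 3317 and 2152 CPM of Pyy, 374 and 128.9 CPM of Ppy and 379 and 472 CPM of Cck on the Neurog3 plates EA01 and EA03. Within the batch EA01 to EA04, EA02 against EA01 and EA03 gave 1.20 for Npy, -0.89 for Gast, -1.31 for Ppy, -0.16 for Pyy and -0.27 for Cck. EA05 held 39 cells with no hormone among 85, and EA02 held 56 among 72, and the part of this in the values was not tested. Against duct-code cells, Neurog3-code cells held 258 CPM of Ppy, against 0.137 CPM (0.0374 to 0.351), and Pyy (2765 CPM), Cck (423 CPM) and Gast (342 CPM) had no count in the duct code, at least 26868-fold, 4108-fold and 3322-fold higher with 3 counts as the floor. In that comparison 39.2% of all genes were over 2-fold apart, and Npy was under the 20 CPM limit.

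The receptors for these peptides were hardly read in the same cells. Of 7, Npy2r, Ppyr1 (the pancreatic polypeptide receptor), Npy5r, Npy6r and Cckbr had no count in the 429 cells. Npy1r was read in 3 cells (2.70 CPM summed), and Cckar in 5 (4.35 CPM), against 459 CPM for Cckar in the duct code, the group with the acinar genes.

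Of the 10 genes for peptide processing, 9 reached 20 CPM in the comparison of early cells with hormone cells, 2 of them over 2-fold higher in early cells and 7 lower, with a median log2 ratio of -1.37, against 0.05 for all genes, of which 21.5% were over 2-fold apart. The lower ones included Cpe, a carboxypeptidase (1018 CPM in early cells, against 2384 CPM in hormone cells, -1.22), Pcsk2, a prohormone convertase (189 CPM against 957 CPM, -2.31), Scg5, the helper protein of Pcsk2 (187 CPM against 728 CPM, -1.93), and Pam, which makes the amidated end (135.1 CPM against 358 CPM, -1.37). The 2 higher ones, named after their values were seen, were the tyrosine sulfation enzymes Tpst1 (126.3 CPM against 49.9 CPM, 1.26) and Tpst2 (264 CPM against 119.1 CPM, 1.12).

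Of 12 other peptide genes of gut and nerve, 3 reached 20 CPM in that comparison. Iapp (amylin) stood at 48.7 CPM in early cells, against 12483 CPM in hormone cells (-7.86), Gip at 0 CPM, against 59.9 CPM, and Sct (secretin) at 46.9 CPM, against 62.5 CPM (-0.38). Gip had a pattern near that of Npy: of its 21 read cells, 18 were Ins cells. Sct was read in 52 early cells, fewer than Cck. Of 12 factors of islet and gut endocrine cells, 11 were measured, 4 over 2-fold higher in early cells and 3 lower (median 0.25), against the same 21.5% of all genes over 2-fold apart. Pax4, a repressor of the early endocrine programme, stood at 1018 CPM, against 30.4 CPM (4.85), and Neurod1, a target of Neurog3, at 716 CPM, against 355 CPM (1.00). Isl1 stood at 449 CPM, against 1219 CPM (-1.43), and Pax6 at 241 CPM, against 385 CPM (-0.67).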

How the data were processed

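The authors deposited 1 table of read counts, in whole numbers and not normalised. The submitters' processing notes name STAR, HTSeq, FastQC and the build mm10, without versions. The library was Smart-seq2, per the labels' protocols. Reads carry no molecular identifier, so PCR copies count as reads. All 495 columns were matched to a sample by name; the column names carry the knock-in strain word for every plate, whereas the labels give another strain for EA06 and EA07, and groups follow the labels. A filter at 50000 counts and 1000 genes removed 0 cells. Summed counts were 95204148 at E17.5, 85879209 for the endocrine, 69729426 for the Neurog3 and 29154048 for the duct code, and 3 counts make 0.0315, 0.0349, 0.0430 and 0.103 CPM there.

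Counts were summed over cells and divided by the summed total (CPM). Log2 ratios add 5 CPM to both sides, which understates those of low genes, and use genes at 20 CPM or more on either side. Python 3.11.15 (numpy 2.4.6, pandas 2.3.3, scipy 1.17.1) was used, with scale factors from edgeR 4.0.16 (TMM) and DESeq2 1.42.0 in R 4.3.3 as alternatives. The ratio step was tested on simulated counts. The members, the gene lists and the limits were chosen with earlier results of these data known. Genes named by likeness are the 5 of highest r at 0.5 or more, and each list names up to 4 members of highest level. Alternatives were other limits for read, high, hormone, Neurog3 and Fev, thinning to 200000 counts a cell, other scalings, pseudocounts of 1 and 20 CPM, no gene filter, a stricter cell filter, cells with 1 hormone, well rows left out, and each plate left out.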

Additional observations from a re-analysis of the deposited data

How the results depend on the processing

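No paired analysis was possible because each group is 1 sample and its cells carry only plate and well positions, so no result comes from a test. Of 198 alternative values of 12 shares chosen as leading, 193 stayed inside the exact interval of the reported value. Such intervals are wide for small classes: with members read at 100 CPM, Ppy was read in 57.1% of Gcg cells and still counted as inside. Of 2212 values of the other shares, 64 moved outside. At the same 100 CPM, these included Ppy in 32.4% of Gast cells and Gast in 18.5% of Ppy cells. With members read at 100 CPM, Gast was read in 0.532% of early cells, and with hormones at 5000 CPM, Pyy was high in 100% of Sst cells. Leaving out 1 plate at a time gave 88.2% to 100% for Pyy high in Gcg cells, 95% to 100% for Pyy high in Sst cells and 11.9% to 25.4% for Npy in Ins cells; the 100%, the 100% and the 11.9% are the values without EA05.

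The group ratios were less firm. Leaving out 1 plate at a time, E17.5 against E15.5 ranged from -4.56 to 0.29 for Npy (turned round without EA05), from -1.27 to 0.86 for Ppy and from -1.29 to 0.30 for Cck. Endocrine against Neurog3 code ranged from -1.31 to 1.64 for Ppy (turned round without EA05, which is also the -1.31 within the batch EA01 to EA04), from -0.16 to 1.26 for Pyy, from -1.47 to -0.27 for Cck and from -1.55 to -0.77 for Gast (-0.89 within the batch). The ratio of Npy between Neurog3 and duct code was 0 to 2.70, and 1.85 with no filter on genes. Gast in Gcg cells ranged from -0.15 to 2.03. Without Rn45s in the total, Cck was -1.01 between the endocrine and Neurog3 codes, and without well rows D and H Ppy was 1.08. The causes were not tested. The 5 ratios between early and hormone cells kept their direction and stayed over 2-fold under every alternative run on ratios. These were the scalings, the pseudocounts, no gene filter, the stricter cell filter, and well rows or plates left out. The limits that define early and hormone cells, and the thinning, were varied for the shares only.

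Counts of genes over 2-fold were 1231 for E17.5 against E15.5, 866 for endocrine against Neurog3 code, 3118 for Neurog3 against duct code, 1792, 2677, 2188 and 2345 for the Ins, Gcg, Sst and Ghrl classes and 1695 for early against hormone cells. With a pseudocount of 20 CPM they were, in the same order, 501, 248, 1996, 815, 1566, 1186, 1285 and 924. With no filter on genes they were 1625 for endocrine against Neurog3 code, 2942, 4291, 3581 and 3902 for the classes and 2579 for early against hormone cells. Leaving out plates gave 1284 to 2118 for E17.5 against E15.5 (2121 against EA05 alone) and 880 to 1805 for endocrine against Neurog3 code. With 21 to 69 cells per hormone class, and 1 sample per group, a share of a class is known only within the intervals given.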
